A study of Mus musculus with 32 samples.

Results

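The regions described here are 500 of the 11666 binding intervals (4.29%) of the glucocorticoid receptor (GR) in mouse liver. They were selected on interval calls, because they lay in chromatin that was called open only after hormone and because they carried C/EBPβ. Each of the 500 overlapped, by at least 1 bp, a C/EBPβ peak of dexamethasone-treated liver and a DNase I hypersensitive site (DHS) of dexamethasone-treated liver, where that DHS shared no base with any DHS of vehicle-treated liver. GR intervals that touched a vehicle DHS were left out. A DHS absent from the vehicle list is called newly open below. These memberships are the selection itself and are given as a description, with no test.

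GR is a ligand-activated transcription factor. After binding a glucocorticoid it enters the nucleus and occupies response elements, and in liver it controls genes of fuel metabolism. C/EBPβ is a leucine zipper factor of hepatocytes that takes part in the acute-phase response, in gluconeogenesis and in liver regeneration. DNase I cuts accessible DNA preferentially, so a DHS marks a stretch with few or displaced nucleosomes, as found at active enhancers and promoters. Some sites bound by GR are accessible before hormone, while at others accessibility is first detected after hormone. The title of the series names C/EBP as a factor that keeps liver chromatin accessible and helps GR to its elements.

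All livers came from male C57BL/6 mice, 8 weeks old, whose adrenal glands had been removed on both sides. Dexamethasone, a synthetic GR ligand, was given by intraperitoneal injection at 1 mg/kg as a complex with cyclodextrin in a volume of 300 µl, and vehicle animals received cyclodextrin alone. Tissue was examined 1 h after injection. Of the 32 samples in 16 groups, the lists used here stand for DNase-seq and C/EBPβ ChIP-seq of dexamethasone and vehicle liver (2 samples in each of these 4 groups) and for GR ChIP-seq, whose list names no treatment. The adenovirus samples (GFP or dominant-negative C/EBP), polymerase II samples and inputs were not analysed here.

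The 5 lists held 11666 GR intervals, 25392 and 22714 C/EBPβ peaks (dexamethasone and vehicle) and 63473 and 56794 DHS (dexamethasone and vehicle). They give positions on mm9 and no height or count, so read depth is unknown and no value has a replicate error. Each list is of whole liver. A site open in a few cells therefore cannot be told apart from a site weakly open in many. Shares are followed by 95% Wilson intervals and differences by 95% Newcombe intervals, in parentheses. Both cover counting error over regions only. A difference was called where its interval left out 0. For called differences of shares, other than those under alternative settings, the number of chromosomes with the same sign is given.

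Of the 11666 GR intervals, 9236 overlapped a vehicle DHS, and 6636 of these also overlapped a dexamethasone C/EBPβ peak. Newly open DHS held 1819 GR intervals. Of these, 500 coincided with C/EBPβ as called after dexamethasone, and 1319 did not. The 500 regions were spread over 500 different DHS and 500 different C/EBPβ peaks, so that no region shared either partner with another. A single GR interval lay in 486 of the 500 DHS, 2 lay in 13 and 3 lay in 1. The additional GR intervals in those DHS did not overlap a C/EBPβ peak, since 0 DHS held 2 or more of the selected regions. A further 33 newly open DHS held a GR interval and a C/EBPβ peak that did not overlap each other.

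At most of these regions C/EBPβ itself was found only after hormone. Of the 500 C/EBPβ peaks on them, 356 were absent from the vehicle list and 144 (28.8%, 25 to 32.9) were present in both lists. Across all 11666 GR intervals, 50.4% overlapped a vehicle C/EBPβ peak. Across all 25392 dexamethasone C/EBPβ peaks, 80.0% were also in the vehicle list. The selection did not use the vehicle C/EBPβ list, although both C/EBPβ lists come from a common merged set. It did use the vehicle DHS list, which most vehicle C/EBPβ peaks overlapped.

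The share with C/EBPβ before hormone was much lower than at GR peaks in chromatin that was already open. The rule leaves out vehicle DHS, and only 3891 of 22714 vehicle C/EBPβ peaks (17.1%) overlapped no vehicle DHS. The selection therefore favours a lower share here, and the difference is given as a description. Among the 6636 GR intervals that lay in a vehicle DHS and on a dexamethasone C/EBPβ peak, 5676 (85.5%) overlapped a vehicle C/EBPβ peak. The difference was -56.7 percentage points (-60.6 to -52.5) and had this sign on 20 of 20 chromosomes. Averaged over 4 strata (quartiles) of dexamethasone DHS width it was -58.8 points. With only DHS of at least the median width in both lists the difference was smaller, at -29.1 points (58.6% against 87.7%). That setting drops narrow vehicle DHS, so that 1239 GR intervals met the rule.

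Newly open DHS without GR differed as well. In newly open DHS that held no GR interval, 763 of 1156 dexamethasone C/EBPβ peaks (66.0%, 63.2 to 68.7) were also in the vehicle list. The difference from the 28.8% at the GR-bound peaks was -37.2 points (-41.8 to -32.2), with this sign on 20 of 20 chromosomes. Width strata gave -28.0 points. With DHS of at least the median width it was -16.1 points. Read the other way round, 356 of the 777 C/EBPβ peaks that were absent from the vehicle list and lay in a newly open DHS had a GR interval (45.8%, 42.3 to 49.3). Of the 926 C/EBPβ peaks of both lists in newly open DHS, 144 had one (15.6%, 13.4 to 18.0). These shares differed by 30.3 points (26 to 34.4), again on 20 of 20 chromosomes.

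**Figure D1:**
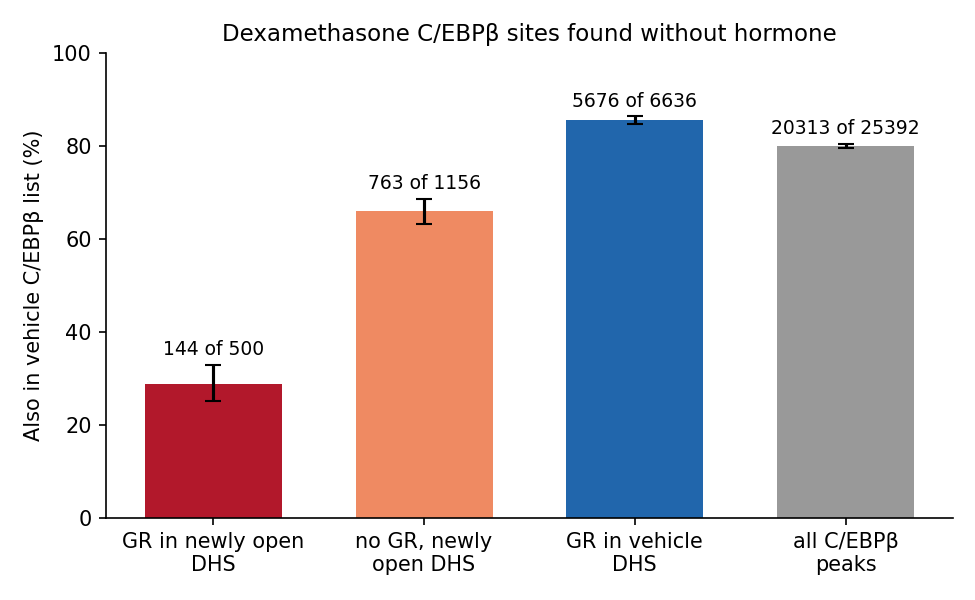
Share of dexamethasone C/EBPβ sites that were also in the vehicle C/EBPβ list (percent, y axis) in 4 classes, with the counts above the bars. The bars of GR in newly open DHS and GR in vehicle DHS count GR intervals on a C/EBPβ peak, the other bars count C/EBPβ peaks, and error bars are 95% Wilson intervals. The GR sites in newly open DHS stand at 28.8%, below the 66.0% of newly open DHS without GR and the 85.5% of GR sites in vehicle DHS.

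The pattern was not carried by a few chromosomes. In the newly open regions the share with a vehicle C/EBPβ peak ran from 11.1% on chromosome X (1 of 9 regions) to 47.6% on chromosome 12 (10 of 21). At GR intervals with C/EBPβ in vehicle DHS it ran from 82.0% on chromosome 2 to 93.0% on chromosome X. The ranges of the chromosomes thus did not overlap between the classes. Intervals for single chromosomes were wide in the newly open class, for example 28.3 to 67.6% on chromosome 12.

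**Figure D2:**
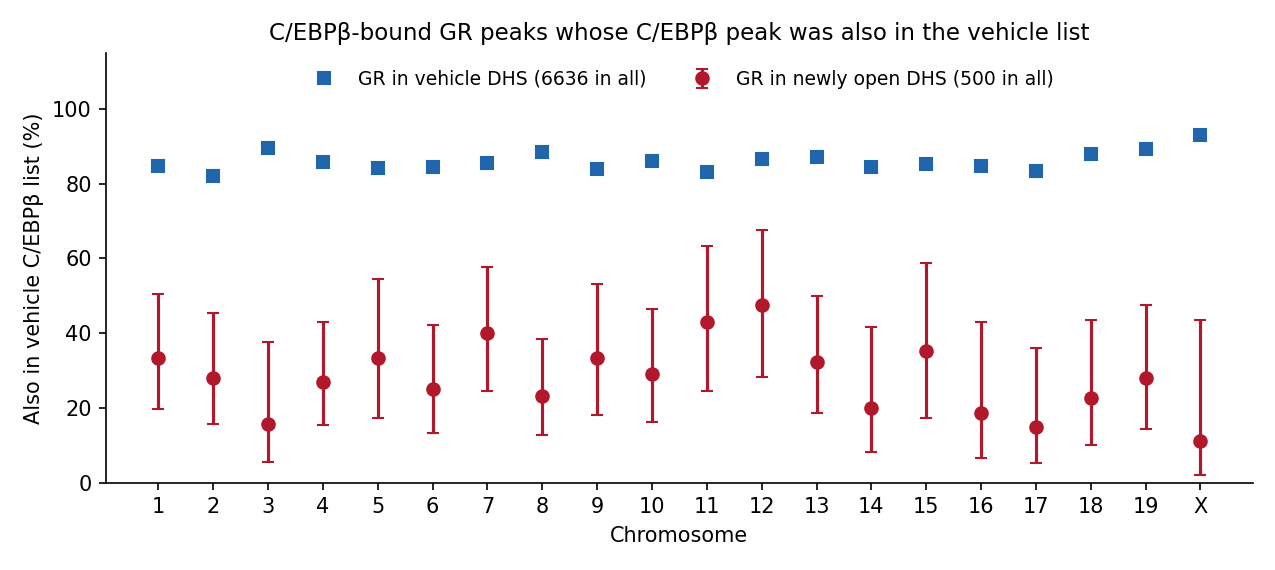
Share of C/EBPβ-bound GR intervals whose C/EBPβ peak was also in the vehicle list (percent, y axis), by chromosome. Circles are the 500 regions in newly open DHS with 95% Wilson intervals, squares are the 6636 GR intervals in vehicle DHS. The highest circle, 47.6% on chromosome 12, lies below the lowest square, 82.0% on chromosome 2.

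The 144 regions with C/EBPβ in both lists were sites where C/EBPβ was called in chromatin that was not called open in vehicle liver. Such C/EBPβ peaks were a minority: 3891 of the 22714 vehicle C/EBPβ peaks (17.1%) overlapped no vehicle DHS. After dexamethasone 999 of the 3891 (25.7%, 24.3 to 27.1) lay in a newly open DHS, and 144 of these 999 (14.4%, 12.4 to 16.7) carried GR. Of the 171 vehicle C/EBPβ peaks outside vehicle DHS that had a GR interval, 144 (84.2%) lay in a newly open DHS. Without GR the number was 855 of 3720 (23.0%). Of all 2430 GR intervals outside vehicle DHS, 1819 lay in a newly open DHS. The 84.2% thus in large part restates a property of the GR list and is given with no test.

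C/EBPβ peaks present before hormone were still present after it, as they nearly always were at GR intervals in vehicle DHS. All 144 vehicle C/EBPβ peaks that lay on GR in newly open DHS were in the dexamethasone list, so 0 of 144 were lost, which allows a share of up to 2.08% (3 counts of the total) and has a Wilson upper limit of 2.60%. The selection did not force this, since the 1319 newly open GR intervals without a dexamethasone C/EBPβ peak had 0 overlaps with the vehicle C/EBPβ list. In newly open DHS, vehicle C/EBPβ peaks without GR were absent from the dexamethasone list in 75 of 855 cases (8.77%, 7.06 to 10.9). The difference was 8.77 points (5.66 to 10.9), with this sign on 18 of 20 chromosomes. Since 0 were lost with GR, no chromosome could have the opposite sign. The 18 are only the chromosomes on which a peak without GR was lost. Over the whole vehicle list, 10.6% of C/EBPβ peaks were absent from the dexamethasone list. Of the 5713 GR intervals in vehicle DHS that overlapped a vehicle C/EBPβ peak, only 37 overlapped no dexamethasone one. Retention of C/EBPβ was therefore not particular to the newly open regions.

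GR and C/EBPβ centres lay close together, at the 500 regions as in vehicle DHS. At GR intervals with C/EBPβ in vehicle DHS the median distance was 19 bp (18.5 to 19.5). The median distance between the centres at the 500 regions was 17.3 bp (order-statistic 95% interval 15 to 19), with quartiles of 8 and 31.6 bp. The centres were within 10 bp of each other at 158 regions (31.6%), within 20 bp at 284 (56.8%, 52.4 to 61.1) and within 40 bp at 413 (82.6%). Over all GR intervals with a dexamethasone C/EBPβ peak, the shares within 10 and 40 bp were 30.8% and 77.3%. At 9 of the 500 regions both centres fell on the same position. The C/EBPβ centre lay to the side of higher coordinates at 268 regions and to the other side at 223. All GR intervals were 150 bp wide and overlap was required, so the distance had an upper bound of about the mean width of the paired intervals, and only its distribution below that bound can be compared.

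Whether the spacing differed from that at GR peaks in vehicle DHS depended on the limit used. For all GR intervals with a dexamethasone C/EBPβ peak, 52.8% of centres were within 20 bp. The share was 52.5% in vehicle DHS, and the difference of 4.30 points (-0.24 to 8.74) was not called. It was -1.69 points (-6.31 to 2.94) within strata of DHS width. At 40 bp the difference was 5.69 points (1.98 to 8.93) and was called, and at 10 bp it was 0.813 points (-3.27 to 5.16).

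Among sites where C/EBPβ was found only after hormone, the spacing was looser in vehicle-open than in newly open chromatin. Centres were within 20 bp at 200 of 356 newly open regions (56.2%, 51.0 to 61.2) and at 419 of 960 GR intervals in vehicle DHS (43.6%, 40.5 to 46.8). The 52.8% over all GR intervals with a dexamethasone C/EBPβ peak lies within the interval of the 356 and above that of the 960. The difference between the 356 and the 960 was 12.5 points (6.46 to 18.5), positive on 16 of 20 chromosomes. All of these C/EBPβ peaks were 150 bp wide. The DHS of the 960 had a median width of 872 bp, and those of the 356 of 653 bp. Within width strata the difference was 8.12 points (1.21 to 15). Where C/EBPβ was in both lists the shares were 58.3% (84 of 144) and 54.0% (3065 of 5676), a difference of 4.33 points (-3.93 to 12.2) that was not called. Within vehicle DHS, both-list sites exceeded dexamethasone-only sites by 10.4 points (6.94 to 13.7), on 19 of 20 chromosomes. Within newly open DHS that difference was 2.15 points (-7.45 to 11.5).

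**Figure D3:**
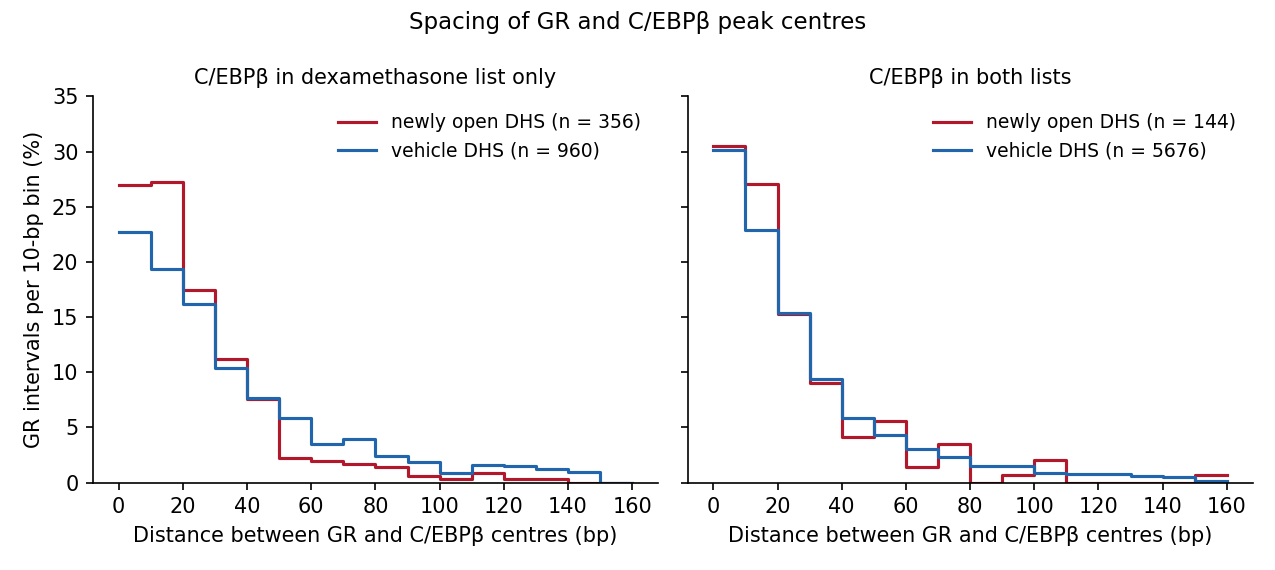
Distance between GR and nearest C/EBPβ peak centres (bp, x axis, in 10-bp bins) as percent of GR intervals in each class (y axis), for C/EBPβ in the dexamethasone list only (left) and in both lists (right). Red lines are newly open DHS, blue lines vehicle DHS, and distances of 160 bp or more are not drawn. On the left the red line is higher below 20 bp (56.2% against 43.6% at 20 bp or less), while on the right the lines lie close to each other.

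GR sat near the middle of the newly open sites. The median distance from the GR centre to the DHS centre was 32 bp (28 to 35.5), which is 10.4% of the way from the DHS centre to its edge. For C/EBPβ centres it was 36 bp (31.5 to 39.5). At newly open GR intervals without C/EBPβ the GR centre lay 37.5 bp (35 to 40) from the DHS centre, an interval that overlaps that of the 500 regions. As a part of the way to the edge, the offset was 12.7% (12 to 13.7) there and 10.4% (9.41 to 11.9) at the 500 regions, and these intervals do not overlap. In vehicle DHS with C/EBPβ the GR centre was 59 bp from the centre of the dexamethasone DHS, in DHS with a median width of 823 bp.

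The newly open DHS that held the 500 regions had a median width of 630.5 bp (613 to 648). Newly open DHS with GR and no C/EBPβ on it had a median of 613 bp (601 to 623, n = 1288). The intervals overlap, and the difference of 17.5 bp was not called. Newly open DHS without GR were narrower, with medians of 496 bp (488 to 503, n = 1145) where a C/EBPβ peak was present and 457 bp (453 to 459, n = 12143) where neither factor was. Shared DHS with GR had a median of 815 bp.

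DHS width differed by the history of C/EBPβ, at the 500 regions and also in vehicle DHS. At GR intervals in vehicle DHS, the dexamethasone DHS had median widths of 872 bp (849 to 895) with dexamethasone-only C/EBPβ. With C/EBPβ in both lists the median there was 815 bp (807 to 823). The 356 regions with C/EBPβ found only after hormone lay in DHS with a median width of 653 bp (636 to 672). The 144 with C/EBPβ in both lists lay in DHS of 597.5 bp (575 to 613). These intervals do not overlap, and the median was larger for the former on 18 of 20 chromosomes. The difference of 55.5 bp was called in each of 9 alternatives, with values from 34 to 57 bp. In quartiles of width, the share with a vehicle C/EBPβ peak fell from 40.4% (31.3 to 50.3; 40 of 99) in DHS of 202 to 533 bp, through 36.5% (50 of 137) and 25% (32 of 128), to 16.2% (10.9 to 23.3; 22 of 136) in DHS of 720 bp and more. The widest and narrowest quartiles differed by -24.2 points (-35.4 to -12.7), with this sign on 15 of 20 chromosomes. The quartiles were set on all 1819 newly open GR intervals.

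Among those 1819, C/EBPβ was rarer in the narrowest DHS. Of the GR intervals in the quartile up to 533 bp, 99 of 450 (22%, 18.4 to 26.1) were among the 500 regions. In the quartile from 720 bp the number was 136 of 455 (29.9%, 25.9 to 34.3), a difference of 7.89 points (2.18 to 13.5) with this sign on 15 of 20 chromosomes. The middle quartiles gave 29.9% and 28.1%, so the step lay between the lowest quartile and the rest.

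**Figure D4:**
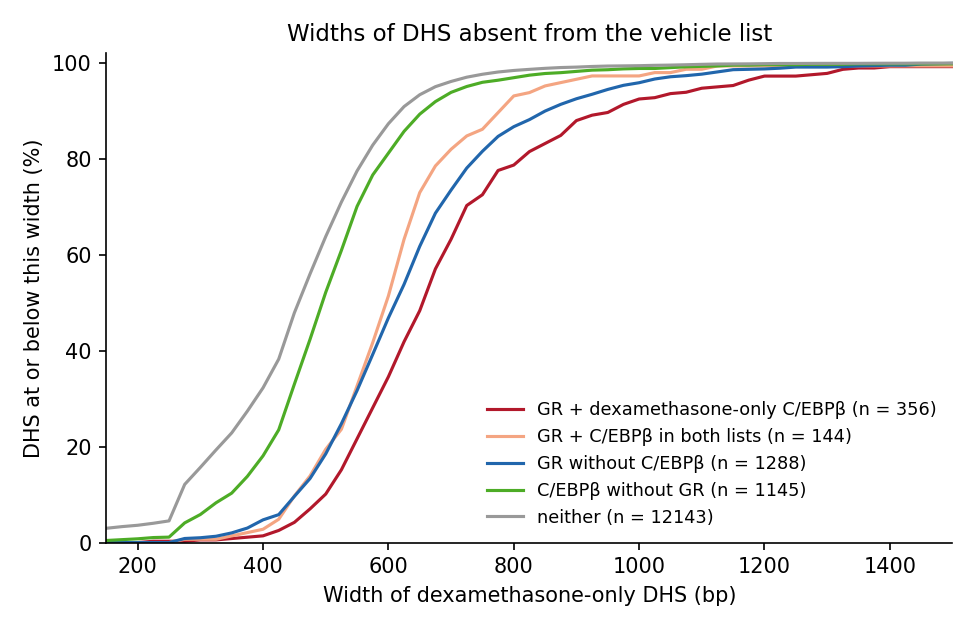
Cumulative share of newly open DHS (percent, y axis) at or below a given width (bp, x axis), in 5 classes by the factors found in them. Widths over 1500 bp are not drawn. The class of GR without C/EBPβ includes 33 DHS with a C/EBPβ peak that did not overlap the GR interval. DHS with GR and dexamethasone-only C/EBPβ (dark red, median 653 bp) lie farthest to the right and those with neither factor (grey, median 457 bp) farthest to the left.

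By the rule for named regions, the 5 in the widest DHS are given first. The GR interval at chr12:105583935-105584085 lay in a DHS of 8347 bp, the widest of the dexamethasone list, with 3 GR intervals in it and the nearest other GR centre 373 bp away. The next was chr19:45822185-45822335, in a DHS of 1901 bp, and it was the only region of the 5 with C/EBPβ in both lists. The others were chrX:97883132-97883282 in 1842 bp, chr4:43363218-43363368 in 1720 bp and chr2:152611367-152611517 in 1376 bp. Centres of GR and C/EBPβ were between 6 and 57 bp apart in these 5. The chromosome 12 DHS was more than 4 times as wide as the next.

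Vehicle-open chromatin was usually nearby. The median distance from the 500 regions to the nearest vehicle DHS was 3531 bp (2861 to 3983), with quartiles of 1225 and 8071 bp. A vehicle DHS lay within 5 kb of 305 regions (61.0%, 56.7 to 65.2), and within 20 kb of 466 (93.2%). Of all GR intervals outside vehicle DHS, 59.9% had one within 5 kb. Of the newly open GR intervals without C/EBPβ, 710 of 1319 (53.8%) did. The difference was 7.17 points (2.07 to 12.1), positive on 14 of 20 chromosomes. It was not called at 2 kb (4.05 points, -0.723 to 8.96) or with DHS of at least the median width (1.79 points, -2.00 to 5.57). For the 356 regions with dexamethasone-only C/EBPβ alone, the share was 58.4% and the difference of 4.60 points (-1.23 to 10.3) was not called.

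Far from vehicle DHS, newly open GR peaks carried C/EBPβ less often. Of newly open GR intervals within 1 kb of a vehicle DHS, 101 of 320 (31.6%, 26.7 to 36.8) had a dexamethasone C/EBPβ peak. The share was 29.4% between 1 and 5 kb (204 of 695) and 27.8% between 5 and 20 kb (161 of 579). Beyond 20 kb it was 15.1% (11 to 20.4; 34 of 225). The nearest and farthest classes differed by 16.5 points (9.30 to 23.1), with this sign on 19 of 20 chromosomes. Within the 500 regions the share with a vehicle C/EBPβ peak was 33.7% within 1 kb, 30.9% at 1 to 5 kb, 25.5% at 5 to 20 kb and 17.6% beyond (6 of 34, 8.35 to 33.5). The intervals of these 4 shares overlap.

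**Figure D5:**
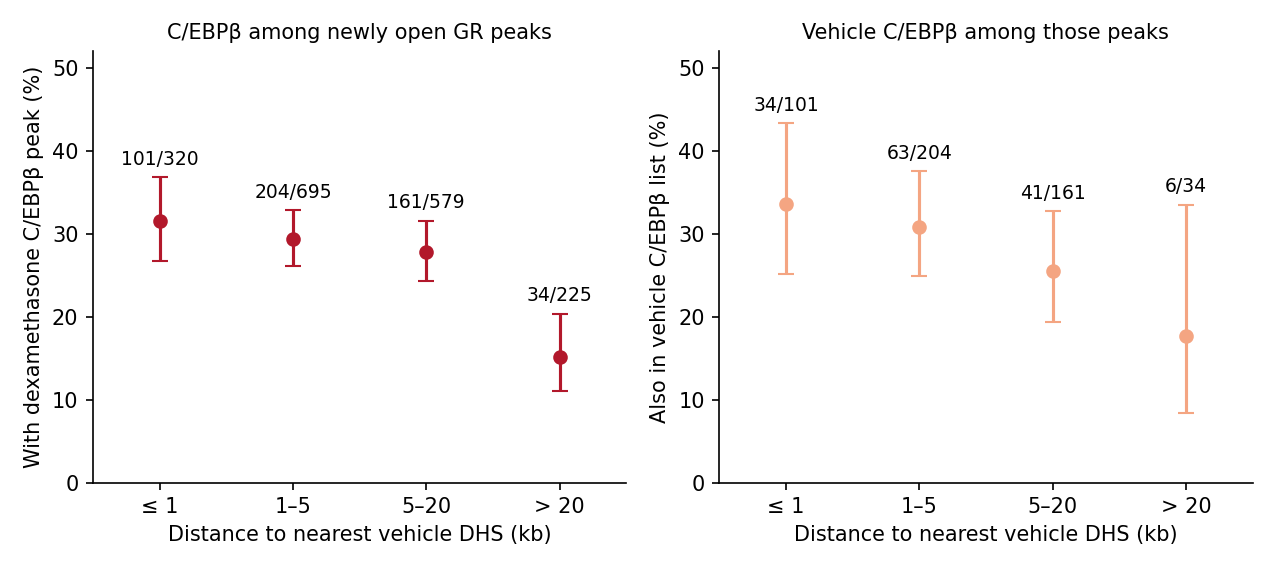
Left, share of the 1819 newly open GR intervals with a dexamethasone C/EBPβ peak (percent, y axis) by distance to the nearest vehicle DHS (kb, x axis). Right, share of the 500 such regions whose C/EBPβ peak was also in the vehicle list; points have 95% Wilson intervals and counts. The left share is 31.6% within 1 kb and 15.1% beyond 20 kb, and the intervals on the right overlap.

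The 5 regions farthest from any vehicle DHS lay between 66754 and 103683 bp from one. The farthest was chr1:55566577-55566727, where C/EBPβ was in both lists, its centre 28.5 bp from that of GR. At chr3:105973675-105973825 the nearest vehicle DHS was 99334 bp away, and the GR and C/EBPβ intervals had identical coordinates. At chr2:110328095-110328245 it was 76989 bp away, and the DHS held 2 GR intervals with centres 318 bp apart. The others were chr6:115188733-115188883 and chr11:64086828-64086978, 74402 and 66754 bp away. Apart from the pair on chromosome 2, the nearest other GR centre was at least 183038 bp from these regions. C/EBPβ was in both lists at 2 of the 5.

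Other GR peaks were near more often than at newly open GR peaks without C/EBPβ. Another GR centre lay within 10 kb of 255 of the 500 regions (51.0%, 46.6 to 55.4), against 532 of 1319 (40.3%, 37.7 to 43.0). The difference was 10.7 points (5.54 to 15.7), positive on 16 of 20 chromosomes, and it was called in each of 12 alternatives. The share over all GR intervals was 52.3%, and the share at GR intervals with C/EBPβ in vehicle DHS was 54.3%. The difference from the latter, -3.32 points (-7.86 to 1.19), was not called. The share over all GR intervals lies within the interval of the 500 regions, while the share at newly open peaks without C/EBPβ lies below it. Regions with dexamethasone-only C/EBPβ (49.7%) exceeded those without C/EBPβ by 9.39 points (3.57 to 15.2), on 14 of 20 chromosomes.

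The class of the nearest GR neighbour was read against its share over all GR intervals. For the 255 regions with a neighbour within 10 kb, it lay in a vehicle DHS with C/EBPβ in 143 cases (56.1%, 49.9 to 62.0) and in a vehicle DHS without C/EBPβ in 49 (19.2%). It was a newly open peak without C/EBPβ in 46 cases (18.0%), another of the 500 regions in 11, and outside these classes in 6. Of all 11666 GR intervals, 56.9% lay in a vehicle DHS with C/EBPβ, 22.3% in a vehicle DHS without it, and 11.3% were newly open without it. Among all 6098 GR intervals with a neighbour within 10 kb, the neighbour was of these classes in 58.9%, 23.8% and 8.64%. Neighbours in vehicle DHS were thus no more frequent at the 500 regions than over all GR intervals. For newly open GR intervals without C/EBPβ, 249 of 532 neighbours (46.8%) lay in a vehicle DHS with C/EBPβ, and the difference was 9.27 points (1.81 to 16.6), with this sign on 15 of 20 chromosomes.

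The vehicle DHS closest to each region was examined in the same way. It held a GR interval at 171 of the 500 regions (34.2%, 30.2 to 38.5), against 15.4% of all vehicle DHS and 26.7% (352 of 1319) for newly open GR intervals without C/EBPβ. The difference between the newly open classes was 7.51 points (2.80 to 12.4), positive on 13 of 20 chromosomes. A vehicle C/EBPβ peak lay in that nearest DHS at 191 regions (38.2%) and at 471 of 1319 (35.7%), a difference of 2.49 points (-2.42 to 7.51) that was not called. Of all vehicle DHS, 31.1% held one. For the 356 regions without vehicle C/EBPβ of their own, a vehicle C/EBPβ peak lay within 10 kb at 189 (53.1%), against 604 of 1319 (45.8%). The difference was 7.30 points (1.45 to 13.1), positive on 14 of 20 chromosomes. Over all GR intervals outside vehicle DHS the share was 52.8%, and over all GR intervals 79.2%. Both of these include intervals on a vehicle C/EBPβ peak. The median distance of the 356 regions to a vehicle C/EBPβ peak was 8855 bp (7403 to 10678), against 12361 bp (10908 to 13791) at the 1319. Within 50 kb on either side the 500 regions had on average 7.26 vehicle DHS, 4.07 vehicle C/EBPβ peaks and 2.84 other GR intervals. The newly open peaks without C/EBPβ had 6.18, 2.92 and 2.34. Newly open DHS, the region's own included, did not follow this order, with 2.94 around the 500 regions and 2.99 around those without C/EBPβ. Of the 500 regions, 144 themselves lay on a vehicle C/EBPβ peak, against 0 of the 1319, which may add to the mean of 4.07. The means were not tested.

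The 500 regions lay on 20 chromosomes, from 9 on chromosome X to 39 on chromosome 8. They made up between 18.9% of newly open GR intervals on chromosome 11 (21 of 111, 12.7 to 27.2) and 39.3% on chromosome 18 (22 of 56, 27.6 to 52.4). In windows of 100 kb they were mostly alone. Of the 474 windows that held any, 451 held 1, 20 held 2 and 3 held 3.

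The 3 windows with most of the selected regions each held 3 newly open GR intervals, and all of these were selected regions. Ranking windows by selected regions favours this, and over all newly open GR intervals 500 of 1819 carried C/EBPβ. The window chr2:30000000-30100000 held 7 GR intervals in all, among 15 vehicle DHS and 4 newly open ones. Its regions, chr2:30066311-30066461, chr2:30071831-30071981 and chr2:30092125-30092275, were each within 387 bp of a vehicle DHS and had dexamethasone-only C/EBPβ. The window chr8:91800000-91900000 held 7 GR intervals and 6 vehicle DHS. Its regions were chr8:91869509-91869659, chr8:91888269-91888419 and chr8:91896505-91896655, with C/EBPβ in both lists at the middle one. The window chr9:44900000-45000000 held 6 GR intervals, with the regions chr9:44903699-44903849, chr9:44921258-44921408 and chr9:44990034-44990184, and C/EBPβ in both lists at the first. Unlike those on chromosome 2, the regions of this window were all more than 6 kb from a vehicle DHS.

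Of the 20 windows with 2 regions, the first by chromosome name, sorted as text, were on chromosome 10. In chr10:5700000-5800000 the regions were chr10:5703926-5704076 and chr10:5746601-5746751. In chr10:41900000-42000000 they were chr10:41925005-41925155 and chr10:41968178-41968328, in a window with 11 GR intervals and 9 newly open DHS. C/EBPβ was in the dexamethasone list only at these 4 regions, with centres between 11 and 31 bp from those of GR.

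Few regions lay near the limit of the rule for overlap with C/EBPβ, and more lay near that for accessibility. The overlap between the GR interval and the C/EBPβ peak was at least 100 bp at 456 of the 500 and under 75 bp at 21. The smallest overlaps were 3 bp at chr7:27731339-27731489, 18 bp at chr8:23543518-23543668 and 26 bp at chr1:83956399-83956549. Just outside the rule, newly open GR intervals missed a C/EBPβ peak by 8 bp at chr1:140487334-140487484, by 17 bp at chr7:148250605-148250755 and by 21 bp at chr11:51638452-51638602. Of the 1319 without overlap, 24 had a C/EBPβ peak within 150 bp. On the side of accessibility, the DHS of 69 regions lay within 500 bp of a vehicle DHS, the closest at 16 bp. Farther away were 431 of the 500, and 1143 of the 1288 newly open DHS with GR and no C/EBPβ on it.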

How the data were processed

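The authors deposited 5 interval lists that give positions (chromosome, start and end) and an identifier per interval, with no score, count or signal. CASAVA 1.8 and mm9 are named per the submitters' processing notes. The sources used here name no aligner, peak caller, threshold or pooling of samples. Unused columns of per-sample values numbered 0. Positions are printed as in the files and were treated as half-open.

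C/EBPβ peaks shared by both lists have the same coordinates and number in both, so sharing was set by the deposited merge, and C/EBPβ peaks in a list alone are 150 bp wide. Regions overlapped when they shared at least 1 bp. Shares have 95% Wilson intervals, differences of shares 95% Newcombe intervals, and medians exact order-statistic intervals; a difference of medians was called where these did not overlap. No p-value is given, since regions are not replicates and neighbouring regions are not independent. The 6 differences of the fixed design and 21 chosen after values were seen are not adjusted for their number. The latter comprise the comparisons between dexamethasone-only and both-list C/EBPβ, those by width quartile and distance class, those of GR on C/EBPβ peaks, of lost C/EBPβ peaks, of neighbours, of the nearest vehicle DHS and of vehicle C/EBPβ within 10 kb. Other medians set side by side, as for GR offset, DHS without GR and distance to vehicle C/EBPβ, are not among these differences. They were not adjusted either and have no count of chromosomes. The regions and comparisons were chosen with earlier results of these data known.

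Regions named are those in the 5 widest DHS, the 5 farthest from a vehicle DHS, those in the 5 windows of 100 kb with most regions, the 3 with the smallest overlap with C/EBPβ, and the 3 newly open GR intervals with the smallest gap to C/EBPβ; ties went by chromosome and start as text. DHS with 2 or more regions would also have been named. The planned motif comparison, the names of nearest genes and sequences were not run, since the reference tables at hand refer to another build than mm9, and positions were not converted. The labelled tissue was not checked against marker genes. Counts were tested on simulated lists, in which planted classes came back as planted, and bedtools 2.31.1 gave the same 500 regions. Computation used Python 3.11.15, numpy 2.4.6, pandas 2.3.3, scipy 1.17.1 and matplotlib 3.10.9.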

Additional observations from a re-analysis of the deposited data

How the results depend on the processing

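No paired analysis was possible because each list stands for a whole condition and holds no value per sample; for the same reason no replicate could be left out. Alternatives changed the overlap rule, the distance from vehicle DHS, the DHS used, the list lengths, the C/EBPβ width, the chromosomes and the distance limits, or averaged over width strata. One without DHS of the commonest fixed widths, and all those of the comparisons chosen after values were seen, were added after seeing the data. Of 93 alternative values, 86 kept their direction and their side of the threshold. The difference in vehicle C/EBPβ from GR intervals in vehicle DHS ranged from -58.8 to -29.1 points, and from newly open DHS without GR from -37.9 to -16.1 points, called each time. DHS of at least the median width gave the most changes: 1239 regions in place of 500, a width difference of -8 bp in place of 17.5 bp (neither called), a called difference of 3.52 points for centres within 20 bp, and no call for vehicle DHS within 5 kb (1.79 points). That setting turns DHS matched in the full lists into newly open ones, so more regions follow from its construction. With 2 kb in place of 5 kb the latter was 4.05 points and not called. For the centres, 40 bp in place of 20 bp gave a called 5.69 points, and width strata gave -1.69 points against 4.30 points (neither called); the cause was not tested. Lists of the same length, which dropped the narrowest dexamethasone DHS, left 375 regions. The dexamethasone C/EBPβ peaks dropped were of 150 bp, the smallest width. Among peaks of this width, those late in the order of chromosome and start were dropped. Read depth is unknown, so whether peaks missing from the vehicle lists fell below a calling threshold was not tested.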
